A study of Mus musculus with 10 samples.

Results

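The Slc25 genes encode the mitochondrial carriers, the largest family of transporters of the inner mitochondrial membrane. They were taken by symbol as every gene whose name starts with Slc25a, apart from Slc25a1, Slc25a20 and Slc25a44. A gene was used where a probe set annotated to it alone had a value on all 10 arrays, and 42 genes of the 19659 measured met this rule, each read by 1 probe set. Slc25a5 had no value on any array and was not analysed here. The members were grouped by the substrate that each carrier is known to move.

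Each array held RNA from the white fat of the inguinal-femoral depot under the skin of 1 female mouse, untreated, fed chow and 14 weeks old. All came from the F2 generation of a cross between the Fat line, a mouse line with high body fat, and the congenic V line. The V line was founded by an animal recombinant within the Fob3a region and was backcrossed repeatedly to the Fat line, with other obesity loci removed by markers. FF mice were homozygous for the Fat-line allele at the Fob3a obesity locus. VV mice were homozygous for the V-line allele there, which the sample labels also call the Lean-line allele. Each group had 5 mice, each with an animal number of its own, and both groups share the Fat-line background.

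A mitochondrial carrier is a small membrane protein built from repeated pairs of membrane helices. It exchanges or co-transports a metabolite between the cytosol and the matrix. The family supplies ADP and phosphate to the ATP synthase, moves the malate and aspartate that shuttle reducing equivalents, and brings cofactors such as NAD, coenzyme A, folate and glutathione to the enzymes of the matrix. In adipocytes these carriers also serve fatty acid synthesis, since citrate and malate cross the inner membrane on them, and the uncoupling protein of brown fat, Ucp1, belongs to the same protein family under another gene name.

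Values are log2 intensities, so a difference of 1 is a doubling. They lay between 3.56 and 14.2. Array medians lay between 7.15 and 7.17 in FF mice and between 7.18 and 7.21 in VV mice. All values of Slc25a2, Slc25a14, Slc25a21, Slc25a31, Slc25a34, Slc25a41, Slc25a53 and Slc25a54 lay below the median of every array. Whether their probe sets stood above background was not tested, so a small difference in them says little. The mean of 10 markers of mature adipocytes was 12.80 to 12.98 in every mouse. Markers of other tissues were high in single mice. In VV replicate 1, 8 of 9 measured liver markers exceeded every other array by more than 1 log2 unit, and in FF replicate 1 the same held for 8 of 10 skeletal muscle markers. The mean of 7 leukocyte markers was 9.58 to 9.95 in FF and 10.12 to 10.50 in VV. The mean of 8 brown and beige adipocyte markers was 8.65 to 9.74 in FF and 6.89 to 7.65 in VV, and that of 13 respiratory chain and citrate synthase genes was 10.96 to 11.44 in FF and 10.68 to 10.96 in VV. The mean of 8 mammary epithelial markers was 6.59 to 6.73 in FF and 6.65 to 6.76 in VV. Fat was sampled whole, so fewer cells of a type and less RNA per cell cannot be told apart, and the part of these cell mixtures in the differences below was not tested.

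FF and VV fat were compared to ask whether carrier expression differs with the genotype at Fob3a. None of the 42 carriers taken by symbol passed an adjusted p of 0.05 over all genes in limma, where 0.753% of all genes did (148 of 19659). At the looser adjusted p of 0.10, 4 carriers were higher in FF, namely Slc25a22, Slc25a35, Slc25a51 and Slc25a33, and 1 was lower, Slc25a43, against 3.58% of all genes in either direction. At an unadjusted p under 0.05 there were 14 of 42, or 33.3%, against 16.4% of all genes. Of these, 10 were higher in FF, where all genes gave 10.2%, and 4 were lower, where all genes gave 6.18%. FF and VV values were fully separate for 3 members, Slc25a22, Slc25a43 and Slc25a13, which is 7.14% against 4.7% of all genes. The median difference of the 42 members was 0.05, with 25 positive and 17 negative, and that of all genes was under 0.01 in size (0.00081). The number higher at an unadjusted p under 0.05 was 10 to 12 whichever mouse was left out, while the number lower ranged more widely. It was 1 when VV replicate 2 or 5 was left out and 2 for FF replicates 1, 2, 4 and 5. It was 3 for VV replicates 3 and 4, and 5 for FF replicate 3 and VV replicate 1. The share of all genes in either direction moved too, from 13.6% without VV replicate 2 to 17.7% without FF replicate 3. After centring each array on its median, 15 were higher and 1 was lower, and 5 carriers higher in FF passed the adjusted p of 0.05. That scaling moved all genes too: 19.6% had an unadjusted p under 0.05, 3.06% passed the adjusted threshold with 92.2% of those higher in FF, and the median difference of all genes was 0.04.

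**Figure D1:**
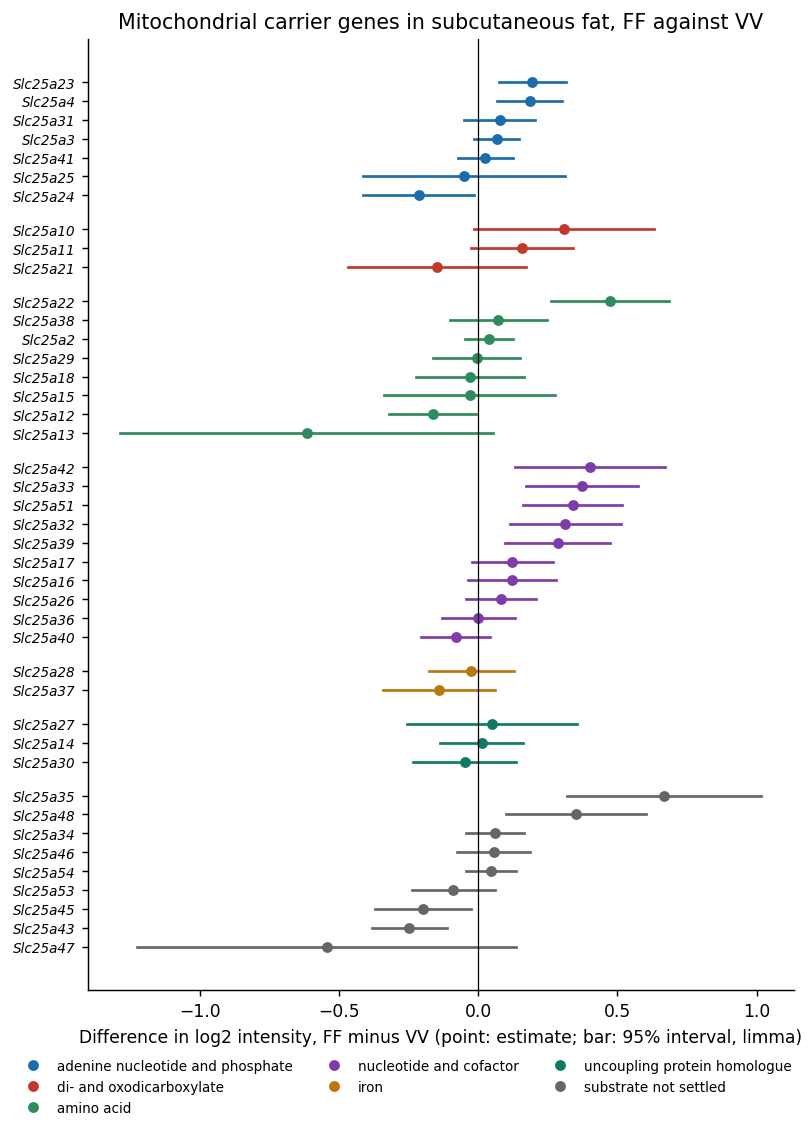
Difference in log2 intensity (FF minus VV, horizontal axis) for the 42 carrier genes, grouped by substrate, with points for the limma estimate and bars for its 95% interval (5 mice per group). Slc25a35 at 0.67 and Slc25a22 at 0.47 lie farthest to the right, and the widest bars are those of Slc25a13 and Slc25a47, for which 1 VV mouse was far above the others.

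The adenine nucleotide and phosphate carriers, which feed the ATP synthase or set the size of the matrix nucleotide pool, differed by small amounts in either direction. Of 7 measured members none passed the adjusted threshold, and their median difference was 0.07. At an unadjusted p under 0.05, 2 were higher and 1 lower, where all genes gave 10.2% and 6.18%. With so few members these counts say little about the group. Slc25a4, the adenine nucleotide translocator of heart and muscle that exchanges ATP for ADP, read 11.20, 11.12, 11.08, 11.22 and 11.27 in FF replicates 1 to 5 and 10.96, 10.98, 11.13, 10.92 and 10.97 in VV replicates 1 to 5. VV replicate 3 stood inside the FF range, while the other 4 VV mice lay below every FF mouse. The difference was 0.18 with a standard error of 0.05 and an adjusted p of 0.118 in limma. Slc25a3, the carrier that imports phosphate together with protons, was 12.89, 12.82, 12.79, 12.81 and 12.83 in FF and 12.77, 12.75, 12.79, 12.73 and 12.76 in VV. The groups overlapped at FF replicate 3 and VV replicate 3, and the 95% interval of the difference, -0.01 to 0.15, reached no higher than 0.15. For scale, the mean of the 13 respiratory chain and citrate synthase genes differed by 0.40 between the groups, and whether Slc25a3 or Slc25a4 differed less than those genes was not tested.

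The ATP-Mg/phosphate carriers, which exchange adenine nucleotides for phosphate under the control of calcium, did not share a direction. Slc25a23 was 10.89, 10.90, 10.95, 11.00 and 11.06 in FF and 10.92, 10.75, 10.74, 10.68 and 10.75 in VV, a difference of 0.19 ± 0.05 (SE, limma adjusted p = 0.113). Only VV replicate 1 reached into the FF range. Slc25a24 was 8.53, 8.81, 8.91, 8.83 and 8.79 in FF and 8.86, 9.27, 8.88, 8.92 and 9.02 in VV, a difference of -0.21 ± 0.09 (SE, limma adjusted p = 0.267). Its lowest value was in FF replicate 1, and its highest was in VV replicate 2. Slc25a25 varied widely within FF, at 7.80, 7.94, 7.71, 8.18 and 8.68 in FF and 8.04, 8.33, 8.25, 7.95 and 8.00 in VV, with FF replicate 5 above all other mice and FF replicate 3 below them. Its interval of -0.41 to 0.31 includes differences of either sign. Slc25a41 and the testis translocator Slc25a31 differed by 0.03 and 0.08 with intervals of -0.07 to 0.12 and -0.05 to 0.20.

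Carriers of dicarboxylates and oxodicarboxylates gave no member at an unadjusted p under 0.05 among 3, where all genes gave 16.4%. So small a group can hold none at that share. Slc25a10, which exchanges malate or succinate for phosphate and is abundant in white fat, was 12.10, 12.00, 11.66, 12.01 and 11.71 in FF and 11.57, 11.27, 11.87, 11.28 and 11.94 in VV. The mice spread widely in both groups, with VV replicates 2 and 4 lowest, and the difference of 0.31 had an interval of -0.01 to 0.63. Slc25a11, which exchanges malate for 2-oxoglutarate in the malate-aspartate shuttle, was 10.90, 10.77, 10.61, 11.05 and 10.95 in FF and 10.76, 10.69, 10.84, 10.59 and 10.62 in VV, a difference of 0.16 with an interval of -0.03 to 0.34. Slc25a21, the 2-oxoadipate carrier of lysine breakdown, is described with VV replicate 1 below.

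Among the 8 amino acid carriers, Slc25a22 differed most clearly. It imports glutamate with a proton, which supplies glutamate dehydrogenase in the matrix. Its values were 9.30, 9.29, 8.98, 9.26 and 9.19 in FF and 8.69, 8.63, 8.95, 8.48 and 8.91 in VV. Every FF mouse lay above every VV mouse, and the nearest to each other were FF replicate 3 and VV replicate 3. The means were 9.21 ± 0.13 and 8.73 ± 0.20 (SD, n = 5 each), a difference of 0.47 ± 0.10 (SE) or 1.39-fold, with a limma adjusted p of 0.0543 and rank 178 by p among all genes. The adjusted p was 0.0296 to 0.196 over the alternatives and fell under 0.05 in 6 of them, among these the fit without FF replicate 3. Slc25a18, the other glutamate carrier, was 6.96, 6.77, 6.51, 6.74 and 6.87 in FF and 6.73, 6.73, 6.85, 6.67 and 7.00 in VV, with overlapping groups and an interval of -0.22 to 0.17 for the difference.

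The aspartate-glutamate carriers, which export aspartate in the malate-aspartate shuttle, were both lower in FF by estimate without passing the adjusted threshold. Slc25a12 was 9.78, 9.95, 10.02, 9.80 and 9.85 in FF and 9.96, 10.11, 9.86, 10.08 and 10.20 in VV. The groups overlapped through FF replicates 2 and 3 and VV replicates 1 and 3, and the difference was -0.16 ± 0.07 (SE, limma adjusted p = 0.283). Slc25a13 was 6.20, 6.33, 6.27, 6.38 and 6.17 in FF and 8.28, 6.67, 6.53, 6.46 and 6.48 in VV. All VV mice lay above all FF mice, and VV replicate 1 lay 1.61 above the next highest mouse. Apart from VV replicate 1, the values of Slc25a13 lay below the median of every array. Whether its probe set stood above background was not tested. The remaining members, the ornithine carriers Slc25a2 and Slc25a15, the basic amino acid carrier Slc25a29 and the glycine carrier Slc25a38, which serves heme synthesis, differed by -0.03 to 0.07. Their intervals lay within -0.34 to 0.28.

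Carriers of nucleotides and cofactors had the highest median difference of the 7 substrate groups, 0.20 over 10 members. Of these 5 were higher in FF at an unadjusted p under 0.05 and none was lower, against 10.2% and 6.18% of all genes. Slc25a51, which brings NAD into the matrix, was 9.93, 10.12, 9.77, 10.10 and 9.80 in FF and 9.60, 9.54, 9.57, 9.78 and 9.53 in VV. FF replicate 3 and VV replicate 4 met at 9.77 and 9.78, and the other mice were separate. The difference was 0.34 ± 0.08 (SE), 1.27-fold, with a limma adjusted p of 0.0742. Slc25a42, a coenzyme A carrier, was 9.41, 9.40, 9.35, 9.73 and 9.93 in FF and 9.23, 9.41, 9.15, 9.10 and 8.92 in VV, highest in FF replicates 4 and 5. Its difference was 0.40 ± 0.12 (SE, limma adjusted p = 0.131), and VV replicate 2 lay within the FF range.

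Slc25a32, the carrier of folate and of flavin cofactor, was 9.42, 9.21, 9.03, 9.28 and 8.91 in FF and 8.96, 8.79, 8.90, 8.89 and 8.74 in VV. FF replicate 5 lay among the VV mice, and the difference was 0.31 ± 0.09 (SE, limma adjusted p = 0.118). Slc25a32 and the peroxisomal carrier Slc25a17 are annotated to chromosome 15, as is Deptor, the gene in the title of the series, which differed by 0.55 (limma adjusted p = 0.00553). Slc25a17 differed by 0.12 with an interval of -0.02 to 0.27. Slc25a39, which carries glutathione into mitochondria, was 11.54, 11.45, 11.38, 11.63 and 11.61 in FF and 11.39, 11.23, 11.31, 10.94 and 11.32 in VV. FF replicate 3 lay just under VV replicate 1, VV replicate 4 was lowest, and the difference was 0.29 ± 0.09 (SE, limma adjusted p = 0.128). Its homologue Slc25a40 was 8.25, 8.43, 8.35, 8.33 and 8.24 in FF and 8.45, 8.51, 8.41, 8.27 and 8.38 in VV, a difference of -0.08 with an interval of -0.20 to 0.04. Slc25a16, linked to coenzyme A, and Slc25a26, which imports S-adenosylmethionine, differed by 0.12 and 0.08, with intervals of -0.04 to 0.28 and -0.04 to 0.21.

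The pyrimidine nucleotide carriers Slc25a33 and Slc25a36, which supply matrix DNA and RNA synthesis, gave different estimates. Slc25a33 was 7.20, 7.11, 7.03, 7.11 and 7.16 in FF and 7.04, 6.69, 6.82, 6.45 and 6.74 in VV. VV replicate 1, at 7.04, was level with the lowest FF mouse, at 7.03, and the other 4 VV mice lay below. The difference was 0.37 ± 0.09 (SE), 1.3-fold, with a limma adjusted p of 0.0788. Without VV replicate 1 it was 0.45, with a limma adjusted p of 0.0354 (0.0354 to 0.173 over the alternatives). The VV values of Slc25a33 lay below the median of every array, and whether its probe set stood above background was not tested. Slc25a36 was 9.97, 10.12, 10.30, 10.10 and 10.07 in FF and 10.03, 10.15, 10.12, 10.12 and 10.15 in VV, with a mean of 10.11 in both groups and an interval of -0.13 to 0.13.

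The 250 bases before the annotated start of 3 of these genes are shown to set the leading member, Slc25a22, beside the pyrimidine nucleotide pair, whose estimates differ. They are from RefSeq on GRCm38.p6, 5′ to 3′ along the gene, all on the minus strand, with motif matches in capitals. For Slc25a22, which has 3 annotated starts, the most upstream start was used.
Slc25a22, chr7:141437875-141438124: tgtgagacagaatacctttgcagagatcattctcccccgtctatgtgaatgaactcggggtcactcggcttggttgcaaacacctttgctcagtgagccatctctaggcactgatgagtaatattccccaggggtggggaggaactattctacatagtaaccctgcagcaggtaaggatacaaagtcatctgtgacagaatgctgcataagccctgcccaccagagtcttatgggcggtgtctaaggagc
Slc25a33, chr4:149774268-149774517: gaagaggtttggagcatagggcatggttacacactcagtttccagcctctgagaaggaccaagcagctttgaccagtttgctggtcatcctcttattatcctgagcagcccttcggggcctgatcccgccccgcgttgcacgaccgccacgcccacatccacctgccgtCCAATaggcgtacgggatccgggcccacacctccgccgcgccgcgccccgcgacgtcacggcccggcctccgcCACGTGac
Slc25a36, chr9:97111042-97111291: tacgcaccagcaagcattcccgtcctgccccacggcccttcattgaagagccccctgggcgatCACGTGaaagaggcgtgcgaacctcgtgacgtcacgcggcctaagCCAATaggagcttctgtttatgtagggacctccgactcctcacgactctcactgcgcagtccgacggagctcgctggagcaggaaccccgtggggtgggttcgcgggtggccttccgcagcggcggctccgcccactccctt

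Searched on both strands were the E-box CACGTG, the CCAAT box (CCAAT), an NRF1 core (CGCATGCG) and an estrogen-related receptor element (TCAAGGTCA), none of which overlapped another in these 3 windows. Slc25a33 held a CCAAT box that begins 81 bases before the start and an E-box that begins 8 bases before it. Slc25a36 held the same motifs, with the E-box 187 and the CCAAT box 142 bases before the start. The window of Slc25a22 held none of the 4 motifs. Of the 42 members, 33 matched the promoter table. Among those 33, 5 held an E-box (15.2%, against 6.04% of 27025 genes), 15 a CCAAT box (45.5% against 34.5%), and none the NRF1 core or the receptor element (1.58% and 0.366% of all). GC content had a median of 58.4% in the members and 52% in all promoters, so windows differ in base composition as well. A match is a match of letters and was not tested for binding.

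**Figure D2:**
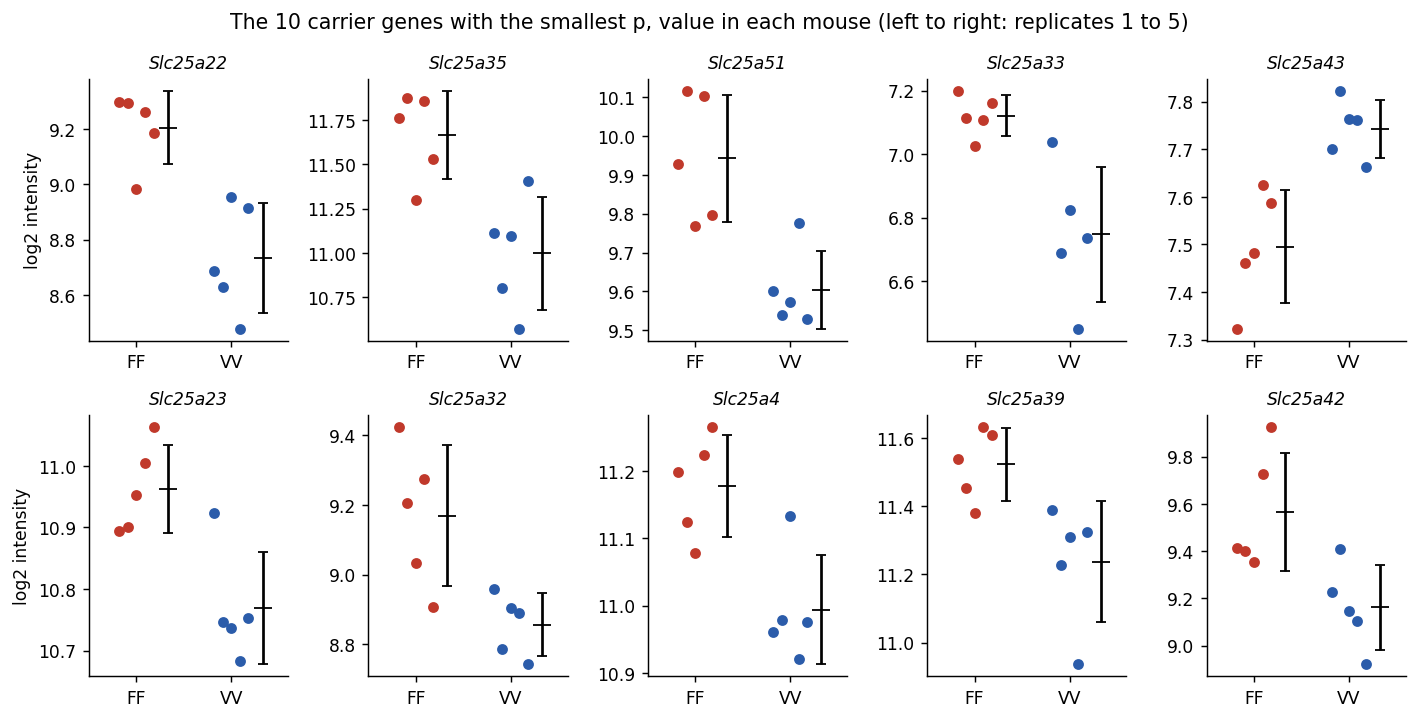
Log2 intensity of the 10 carrier genes with the smallest p in each of 5 FF (red) and 5 VV (blue) mice, replicates 1 to 5 from left to right, with the mean and SD in black. Slc25a22 and Slc25a43 show no overlap between groups, and FF replicate 3 is the lowest FF mouse in most panels where FF is higher.

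The iron carriers, called mitoferrins, and the homologues of uncoupling proteins showed no member at an unadjusted p under 0.05, where all genes gave 16.4%. Groups of 2 and 3 members can hold none at that share. Slc25a37, the mitoferrin of red cell precursors, was 8.65, 8.72, 9.01, 8.65 and 8.74 in FF and 8.80, 8.92, 8.69, 8.93 and 9.14 in VV, with an interval of -0.34 to 0.06 for the difference. Slc25a28, the mitoferrin of other tissues, was 8.92, 8.88, 8.90, 8.97 and 9.18 in FF and 9.00, 9.07, 9.07, 8.82 and 9.01 in VV, with an interval of -0.18 to 0.13. Both groups of mice overlapped for each gene. Slc25a14, Slc25a27 and Slc25a30, which resemble uncoupling proteins in sequence, differed by 0.01, 0.05 and -0.05. The widest interval of the 3 was that of Slc25a27, -0.25 to 0.36, where FF replicate 3 read 8.23 and the other mice at most 7.98.

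Members whose substrate is not settled held both the largest positive difference and the lower member of smallest p. Slc25a35, related to an oxaloacetate carrier of yeast, was 11.76, 11.88, 11.30, 11.86 and 11.53 in FF and 11.11, 10.80, 11.10, 10.57 and 11.41 in VV. FF replicate 3 lay under VV replicate 5, and the other 4 FF mice lay above every VV mouse. The means were 11.67 ± 0.25 and 11.00 ± 0.32 (SD, n = 5 each), a difference of 0.67 ± 0.16 (SE) or 1.59-fold, with a limma adjusted p of 0.0742 (0.0404 to 0.209 over the alternatives). Slc25a34, a close homologue, differed by 0.06 with an interval of -0.05 to 0.16, but all its values lay below the median of every array. Slc25a43 was 7.32, 7.46, 7.48, 7.63 and 7.59 in FF and 7.70, 7.82, 7.76, 7.76 and 7.66 in VV, so that every FF mouse lay below every VV mouse. Its difference was -0.25 ± 0.06 (SE, limma adjusted p = 0.0803, 0.052 to 0.201 over the alternatives).

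Slc25a48 was 6.89, 6.89, 6.35, 7.02 and 6.60 in FF and 6.43, 6.43, 6.28, 6.32 and 6.52 in VV, a difference of 0.35 ± 0.11 (SE, limma adjusted p = 0.154). FF replicate 3 lay within the VV range. Without that mouse the difference was 0.45, with a limma adjusted p of 0.0342 (0.0342 to 0.292 over the alternatives). All values of Slc25a48 lay below the median of every array, and whether its probe set stood above background was not tested. Slc25a45 was 8.21, 8.34, 8.68, 8.32 and 8.52 in FF and 8.59, 8.63, 8.62, 8.60 and 8.62 in VV, a difference of -0.20 ± 0.08 (SE, limma adjusted p = 0.237). VV mice lay between 8.59 and 8.63, while FF replicate 3 exceeded all of them. Slc25a46, an outer membrane protein of mitochondrial dynamics, Slc25a53 and Slc25a54 differed by 0.06, -0.09 and 0.04.

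In 4 carriers VV replicate 1 stood above all other mice by over 0.3 log2 units. Slc25a47, a carrier known for its expression in liver, was 6.86, 6.44, 6.56, 6.65 and 6.86 in FF and 8.60, 6.78, 6.71, 6.97 and 7.04 in VV. Slc25a13, the aspartate-glutamate carrier of liver, exceeded the next mouse by 1.61 and Slc25a47 by 1.56. The 2-oxoadipate carrier Slc25a21 was 5.66 there against at most 5.01 elsewhere, and Slc25a15, the ornithine carrier of the urea cycle, 8.33 against at most 7.85. Slc25a21 in all mice, and Slc25a47 in all but VV replicate 1, lay below the median of every array. Whether their probe sets stood above background was not tested. The liver markers had a mean of 12.24 in VV replicate 1, 9.37 in VV replicate 2 and 7.98 to 8.58 in the other 8 mice. Apoa1, a plasma lipoprotein made in liver, read 12.61 in VV replicate 1 and at most 9.48 elsewhere. Without VV replicate 1 the difference of Slc25a13 went from -0.62 to -0.27 (limma adjusted p = 0.0741, 0.0741 to 0.449 over the alternatives) and that of Slc25a47 from -0.54 to -0.20 (adjusted p = 0.366, 0.306 to 0.578 over the alternatives). Those of Slc25a21 and Slc25a15 went from -0.15 and -0.03 to 0.01 and 0.11. The part of liver RNA in these values was not tested beyond leaving out this mouse.

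**Figure D3:**
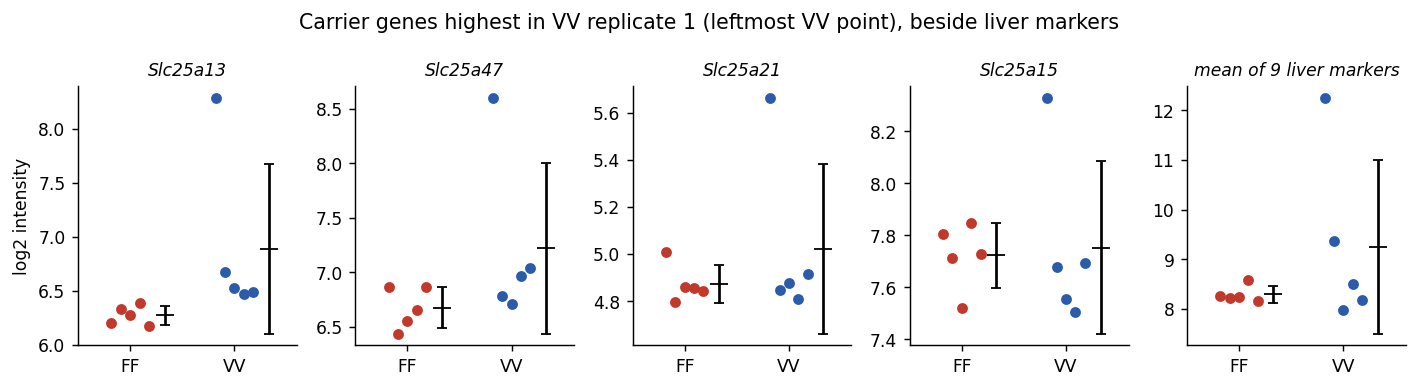
Log2 intensity of Slc25a13, Slc25a47, Slc25a21 and Slc25a15, and the mean log2 intensity of 9 liver markers, in each FF (red) and VV (blue) mouse, with the mean and SD in black. VV replicate 1 is the highest point in all 5 panels.

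Carriers of like substrate were then compared within each mouse, to ask whether 1 member of a pair differed more between genotypes than the other. Of 8 pairs listed, 7 could be tested, since Slc25a5 had no values. The difference between the members was taken in each mouse and its group means were compared by a two-sided exact permutation test over all assignments of mice to groups, whose smallest p is 0.00794, adjusted over the 7 pairs. Probe sets differ in brightness, so the size of such a difference has no meaning of its own and only its shift between genotypes is compared. Slc25a22 minus Slc25a18 was 2.34, 2.53, 2.47, 2.52 and 2.32 in FF and 1.96, 1.90, 2.11, 1.80 and 1.91 in VV. No mouse overlapped, and the shift was 0.50 (exact permutation p = 0.00794, adjusted p = 0.0278). Slc25a39 minus Slc25a40 was 3.29, 3.02, 3.03, 3.30 and 3.37 in FF and 2.94, 2.72, 2.90, 2.67 and 2.94 in VV, again without overlap, with a shift of 0.37 (exact permutation p = 0.00794, adjusted p = 0.0278). Slc25a18 read 6.51 to 7.00, below the median of every array, and whether its probe set stood above background was not tested. The shift of 0.50 for its pair is close to the difference of 0.47 for Slc25a22 alone, so it may hold little beyond that difference. For the other pair, the shift of 0.37 stands beside differences of 0.29 for Slc25a39 alone and -0.08 for Slc25a40 alone. Leaving out single mice gave shifts of 0.47 to 0.54 and 0.32 to 0.41 for these pairs. Both adjusted p values were above 0.05, at 0.0556 to 0.0833, without VV replicate 2, 3, 4 or 5. FF and VV mice stayed fully separate for both pairs there too. The few possible assignments make this p move in coarse steps.

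Slc25a33 minus Slc25a36 shifted by 0.37 (exact permutation p = 0.0238, adjusted p = 0.0556), and by 0.47 without VV replicate 1 (adjusted p = 0.037, range 0.037 to 0.13 over single mice left out). With all mice Slc25a33 alone differed by 0.37 too, so the shift of this pair holds little beyond that difference. Slc25a12 minus Slc25a13 shifted by 0.45 with all mice (exact permutation adjusted p = 0.389) and by 0.08 without VV replicate 1. The remaining pairs gave shifts of 0.15 for Slc25a10 minus Slc25a11, 0.16 for Slc25a25 minus Slc25a24 and -0.12 for Slc25a37 minus Slc25a28 (exact permutation adjusted p = 0.426 to 0.476). Their pooled SD between mice of a group was 0.25, 0.30 and 0.21. Each shift was smaller than this SD, which describes single mice and not the precision of a shift.

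**Figure D4:**
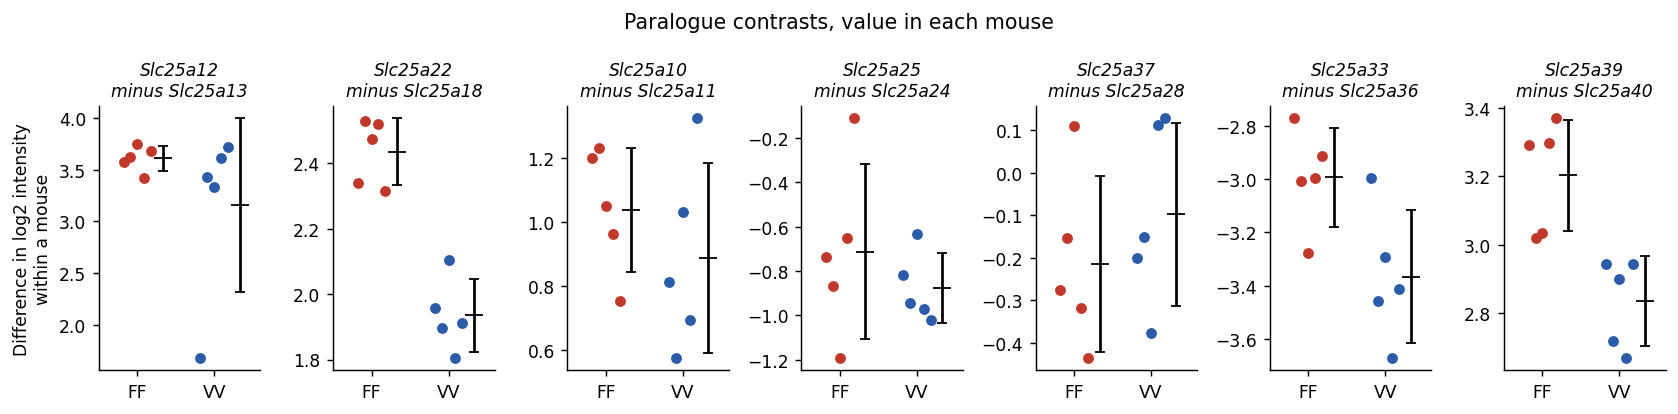
Difference in log2 intensity between the members of 7 carrier pairs within each FF (red) and VV (blue) mouse, with the mean and SD in black. The groups are separate for Slc25a22 minus Slc25a18 and for Slc25a39 minus Slc25a40, and VV replicate 1 stands apart at 1.68 for Slc25a12 minus Slc25a13.

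Other transporters and channels of mitochondrial membranes were read from the same fit. Of 20 measured genes 1 passed the adjusted threshold, Ucp1, the uncoupling protein of brown and beige adipocytes, which was higher in FF by 3.96 ± 0.41 (SE, limma adjusted p = 0.00553, 0.00256 to 0.0539 over the alternatives). At an unadjusted p under 0.05, 12 were higher and 1 lower in FF, where all genes gave 10.2% and 6.18%, and the median difference was 0.19. Sfxn1, a serine transporter, differed by 0.34 (limma adjusted p = 0.0511, 0.0265 to 0.161 over the alternatives), Abcb8 by 0.37 (0.0692, 0.0176 to 0.209 over the alternatives), Letm1, a cation exchanger, by 0.32 (0.109, 0.0439 to 0.235 over the alternatives) and Vdac2, an outer membrane channel, by 0.20 (0.115, 0.0555 to 0.25 over the alternatives). No carrier among the 42 differed by as much as Ucp1. Whether the 42 carriers differed less than these 20 genes was not tested.

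Mice of 1 genotype did not move evenly across the family. FF replicate 3 was the lowest FF mouse in 20 of 42 members and in 8 of the 10 members higher in FF at an unadjusted p under 0.05. VV replicate 4 was the lowest VV mouse in 22 of 42 members and in 6 of those 10. FF replicate 4 was the lowest FF mouse in none of the 42. The same counts over all genes were not made, so whether this pattern is particular to the carriers was not tested. Weights that limma fitted to the arrays over all genes were lowest for FF replicate 3 (0.56) and VV replicate 4 (0.68). The respiratory chain and citrate synthase genes had a mean of 10.96 in FF replicate 3, the lowest of FF and level with VV replicates 3 at 10.96 and 1 at 10.94, and of 10.68 in VV replicate 4, the lowest of all 10 mice. Without FF replicate 3, 4 carriers passed the adjusted p of 0.05 in limma, Slc25a22, Slc25a35, Slc25a48 and Slc25a51, against 1.93% of all genes. Leaving out VV replicate 1 gave Slc25a33 alone, where 0.829% of all genes passed. Leaving out each of the other 8 mice gave no carrier, where only 0.0356% to 0.376% of all genes passed.

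**Figure D5:**
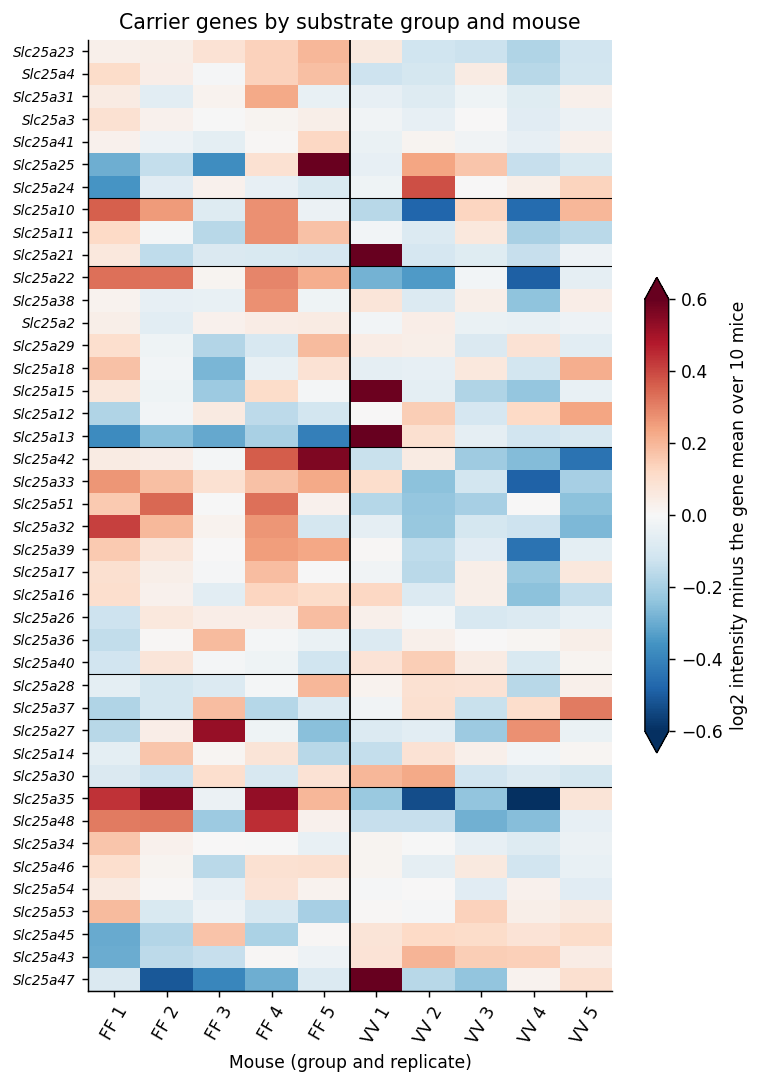
Log2 intensity minus the gene mean over 10 mice (colour, limited to 0.6 either way) for 42 carrier genes in rows and 10 mice in columns. Rows are ordered by substrate group and, within a group, from the highest to the lowest difference FF minus VV. The upper rows of a group are therefore its warmest in FF by construction. VV replicate 1 is dark red for Slc25a13, Slc25a15, Slc25a21 and Slc25a47.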

How the data were processed

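Subcutaneous fat RNA of 10 mice was measured on 1-colour arrays, 1 array per mouse. The values deposited are log2 intensities made with RMA by the authors, per the submitters' processing notes. The RMA version and a build were not given in the sources used here. Of 35557 probe sets 25689 had values on all arrays and 9868 had none. A single gene was annotated for 20777 of them, and the 232 with several genes and the 4680 with none were left out. The probe set with the highest mean stood for each of 566 genes with several, which left 19659 genes. Symbols came from a gene reference through identifiers for 20699 probe sets.

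The genotypes were compared by limma 3.58.1 under R 4.3.3, with statmod 1.5.0 for array weights. The fit used lmFit and eBayes without covariates, tests were two-sided, and p-values were adjusted by Benjamini-Hochberg across all genes and called at 0.05. The method was tested on simulated data. The number of arrays limits the precision. Paralogue pairs were compared by exact permutation in Python 3.11.15, and figures were drawn with matplotlib 3.10.9. The members and lists were chosen with earlier results of these data known. Values per mouse are given for the 15 members of smallest p, both members of each pair and Slc25a3, and Slc25a47 and other members were added where 1 mouse stood apart, after their values were seen. Of the other transporters, those past the threshold and the 4 others of smallest p are named. Alternatives changed the normalization, the filter on dim genes, the probe set, the variance prior, the array weights, the replicate number, the threshold and the mice included.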

Additional observations from a re-analysis of the deposited data

Results flagged for a closer look

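In 11 of 98 groups of 5 mice that were examined, 1 mouse stood apart from the other 4 by more than 0.71 of the group's range, and chance gives about 1 in 20. VV replicate 1 was the mouse apart in 6 of them. It was high at 8.28 for Slc25a13 (next 6.67), 8.33 for Slc25a15 (next 7.69), 5.66 for Slc25a21 (next 4.92) and 8.60 for Slc25a47 (next 7.04). It was low at 10.03 for Slc25a36 (next 10.11) and at 1.68 for Slc25a12 minus Slc25a13 (next 3.33). The liver markers of that mouse are given with the results, and their part in these values was not tested beyond leaving the mouse out.

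For Slc25a4, VV replicate 3 was high at 11.13 (next 10.98). For Slc25a28, VV replicate 4 was low at 8.82 (next 9.00). Among FF mice, replicate 2 was low for Slc25a2 at 5.99 (next 6.08), replicate 3 was high for Slc25a37 at 9.01 (next 8.74), and replicate 4 was high for Slc25a38 at 9.51 (next 9.25).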

How the results depend on the processing

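Of the 42 carriers, 31 kept the direction of their difference in every alternative run. Carriers past the adjusted p of 0.05 and higher in FF numbered 0 as reported, 5 after centring arrays on their median, 3 without genes below the median intensity (28 members tested), 1 without those below the 25th percentile (38 tested), 1 with an intensity trend and robust settings, 3 with array weights, and 0 to 4 with single mice left out. The share of all genes past that threshold was 0.753% as reported. It was 3.06% after centring, 3.61% and 1.56% with the filters, 0.921% with trend and robust settings, and 1.95% with array weights. With single mice left out it was 0.0356% to 1.93%. At an adjusted p of 0.10, 4 carriers were higher and 1 lower, against 3.58% of all genes. Centring raised the members' median difference to 0.0845 and that of all genes to 0.04, and the share of all calls higher in FF from 82.4% to 92.2%. All genes past the threshold numbered 148 as reported, 601 after centring, 355 and 230 with the filters, 383 with array weights, 704 at an adjusted p of 0.10, 28 without FF replicate 1 and VV replicate 1 (chosen after seeing the data), and 7 to 379 with single mice left out. Other transporters higher in FF numbered 1 as reported, 3, 3, 2, 2 and 3 after centring, the median filter, the 25th percentile filter, trend and weights, 3 at an adjusted p of 0.10, and 1 to 5 with single mice left out.

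With the replicate number as a block, 5 genes, 0 carriers and 0 other transporters passed, and Ucp1 had an adjusted p of 0.0539. Same-numbered mice correlated at -0.264 to 0.102, and 2 of 10 correlated best with their own number. These few correlations cannot show whether same-numbered mice shared a batch, and that was not tested.

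Without FF replicate 1 and VV replicate 1 the shifts of Slc25a22 minus Slc25a18 and Slc25a39 minus Slc25a40 were 0.53 and 0.37. The exact permutation adjusted p was 0.0667 for each. Fewer assignments are possible with 4 mice against 4, which raises the smallest p before adjustment. With single mice left out the shifts were 0.47 to 0.54 and 0.32 to 0.41. That of Slc25a33 minus Slc25a36 was 0.44 after quantile normalization (exact permutation adjusted p = 0.037) and 0.30 to 0.47 with single mice left out.

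Differences that reversed were all small. After centring they were 0.0063 for Slc25a15, 0.0088 for Slc25a18, 0.0123 for Slc25a28, 0.0319 for Slc25a29 and 0.0368 for Slc25a36. Quantile normalization gave 0.0242 for Slc25a18 and 0.0388 for Slc25a29, and array weights gave 0.008 for Slc25a15 and 0.0134 for Slc25a29. Without FF replicate 1 and VV replicate 1 they were -0.0055 for Slc25a14, 0.0922 for Slc25a15, 0.0106 for Slc25a30 and 0.0161 for Slc25a36, while Slc25a18 stayed negative at -0.0924. With single mice left out the ranges were -0.0278 to 0.0555 for Slc25a14, -0.0923 to 0.1129 for Slc25a15, -0.0757 to 0.0366 for Slc25a18, -0.2017 to 0.0113 for Slc25a21, -0.2051 to 0.0363 for Slc25a25, -0.0743 to 0.1257 for Slc25a27, -0.0525 to 0.0385 for Slc25a29, -0.0843 to 0.0013 for Slc25a30, -0.0478 to 0.0362 for Slc25a36 and -0.0021 to 0.0442 for Slc25a41. Centring on array medians moves the difference of every gene by the same amount. The cause of the other changes was not tested.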
